A study of Mus musculus with 6 samples.

Results

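The genes described here are 8 markers of progenitor cells of the proximal prostate ducts that are not keratins: Clu, Wfdc2, Nupr1, Ppp1r1b, Prom1, Bcl2, Kit and Lrig1. They are listed together as markers of proximal or castration-resistant progenitors, and each was found by matching the position and length of the deposited transcripts to mouse gene symbols. All 8 were found among the 25272 genes that received a value, and 7 of the 8 were among the 10255 genes tested. RNA sequencing compared basal epithelial cells of the proximal ducts with basal cells of the distal ducts of the mouse prostate. The proximal group comprised 3 libraries from cells of ducts near the urethra, and the distal group comprised 3 libraries from cells of ducts near the gland tips. All came from C57BL/6 mice aged 8 to 12 weeks, and the labels name no allele, transgene or drug in either group. The cells were sorted by fluorescence after antibody staining. The sources used here do not give the antibodies and gates that defined the basal cells. The labels also describe a culture of stromal cells, and leave unsaid whether basal cells were cultured. It is likewise not stated whether replicates are separate animals, so every p-value below measures only the spread between libraries, and that spread may be technical.

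The prostate epithelium consists of a basal layer on the basement membrane and a luminal layer that secretes into the duct. Castration removes most secretory luminal cells and leaves basal cells and cells of the proximal ducts, from which the gland regrows when androgen returns. Clusterin, WFDC2, NUPR1 and DARPP-32 (the product of Ppp1r1b) are known from luminal cells of the proximal ducts and the neighbouring urethra, whereas prominin-1, KIT, BCL2 and LRIG1 have served as markers of stem or progenitor cells in the prostate and other epithelia.

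Expression is given in FPKM (fragments for each kilobase of transcript, relative to the size of the library), as deposited by the authors. FPKM is scaled to transcript length, so levels of different genes can be set side by side. The deposited intervals implied 20700000 to 26600000 fragments per library, and between 9910 and 10301 genes reached 1 FPKM in each. The basal label was checked with 3 identity genes. Krt14, a basal keratin, lay between 2121 and 2276 FPKM in proximal and between 2283 and 3397 FPKM in distal libraries. Krt5, its partner, lay between 583 and 674 FPKM in proximal and between 340 and 437 FPKM in distal libraries, and Trp63, the basal lineage transcription factor, between 27.8 and 39.1 FPKM in proximal and between 34.6 and 74.7 FPKM in distal libraries. All 3 were therefore present in all 6 libraries. Krt5 was called higher in proximal cells (limma, adjusted p = 0.0204, and up to 0.106 on leaving out replicate 2 or 3 of either group). Trp63 did not pass in the main test (log2 fold change -0.70; limma, adjusted p = 0.170), but was called lower in proximal cells without distal replicate 1 (adjusted p = 0.0123).

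A set of 4 stretches of genomic sequence around the start sites of 3 of the markers is shown first, and the transcripts measured for these genes begin at these start sites. Each is 300 bases of RefSeq sequence on GRCm38.p6, from 250 bases before the start site to 50 bases after it, written 5′ to 3′ on the strand of the gene. Capitals mark matches, on either strand, to 6 short motifs that were searched. The letters searched were TGANTCA for AP-1, GGGCGG for the GC box, AGAACA for the androgen receptor half-site, TGATGNAA for the ATF4-C/EBP element, TATAAA for the TATA box and GAANNTTC for the heat shock element. The windows are Nupr1 at chr7:126625421-126625720 on the minus strand, Wfdc2 at chr2:164562465-164562764 on the plus strand, and Prom1 at chr5:44101687-44101986 (outer start) and chr5:44094719-44095018 (inner start), both on the minus strand.
Nupr1: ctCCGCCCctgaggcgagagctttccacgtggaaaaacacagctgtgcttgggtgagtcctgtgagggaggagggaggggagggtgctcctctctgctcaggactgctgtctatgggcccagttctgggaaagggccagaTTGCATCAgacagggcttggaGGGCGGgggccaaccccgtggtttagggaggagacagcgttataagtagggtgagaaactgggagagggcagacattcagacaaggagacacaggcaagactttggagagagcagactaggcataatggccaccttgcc
Wfdc2: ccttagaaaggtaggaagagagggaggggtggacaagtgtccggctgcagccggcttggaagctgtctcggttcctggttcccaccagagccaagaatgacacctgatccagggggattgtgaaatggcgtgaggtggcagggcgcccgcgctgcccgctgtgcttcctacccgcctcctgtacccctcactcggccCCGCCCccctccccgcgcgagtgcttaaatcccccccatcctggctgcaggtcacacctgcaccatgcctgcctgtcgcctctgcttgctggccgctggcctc
Prom1, outer start: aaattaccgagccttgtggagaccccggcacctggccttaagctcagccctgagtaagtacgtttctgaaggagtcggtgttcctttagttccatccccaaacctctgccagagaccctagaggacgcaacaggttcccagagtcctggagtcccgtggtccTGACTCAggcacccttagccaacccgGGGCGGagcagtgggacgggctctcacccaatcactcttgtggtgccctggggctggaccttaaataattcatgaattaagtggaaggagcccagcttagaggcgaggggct
Prom1, inner start: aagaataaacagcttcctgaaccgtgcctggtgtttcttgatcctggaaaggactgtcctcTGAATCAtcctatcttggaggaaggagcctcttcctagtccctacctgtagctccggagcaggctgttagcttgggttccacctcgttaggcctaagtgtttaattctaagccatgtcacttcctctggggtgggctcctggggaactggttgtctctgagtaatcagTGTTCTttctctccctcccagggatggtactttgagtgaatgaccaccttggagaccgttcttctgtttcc

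The Nupr1 window holds GC boxes at positions -248 and -89 and an ATF4-C/EBP element at -110, counted from +1 at the start site. The Wfdc2 window holds a GC box at -53. The outer Prom1 window holds an AP-1 motif at -88 and a GC box at -62, and the inner one holds an AP-1 motif at -189 and an androgen receptor half-site at -21. Of 32851 promoter windows of the same length in the table, 3.97% hold the ATF4-C/EBP letters, 7.81% the AP-1 letters, 19.0% the half-site letters and 35.7% the GC box letters. The marked AP-1, ATF4-C/EBP and half-site matches do not overlap another marked motif. RefSeq windows were matched for 6 of the 8 markers, all except Clu and Ppp1r1b. The windows of Bcl2, Kit and Lrig1 are not printed, and they hold GC boxes and no other motif searched. The printed windows therefore include every AP-1, ATF4-C/EBP and half-site match found in the markers. A match is a description of the letters, and binding was not measured.

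Of the 7 markers tested, Clu, Wfdc2, Nupr1 and Ppp1r1b were higher in proximal basal cells, none was lower, and Prom1, Bcl2 and Lrig1 did not pass the test. The test was limma on log2(FPKM + 1), and a gene was called where its Benjamini-Hochberg adjusted p over all 10255 tested genes was under 0.05. By this rule 464 of the tested genes, or 4.52%, were higher and 256, or 2.50%, were lower in proximal cells, and 7.02% changed in either direction. Leaving out proximal replicate 1 gave 550 higher and 553 lower, and leaving out distal replicate 1 gave 512 higher and 614 lower. A call gained in either setting is to be read beside these counts. At an unadjusted p under 0.05, limma also gave Prom1 as higher and Bcl2 as lower, so that 5 markers were higher and 1 was lower, where 12.1% and 11.9% of all tested genes were higher and lower. The median log2 fold change was 0.85 over the 7 tested markers and -0.01 over all tested genes. The markers were chosen with earlier results of these data known, and Ppp1r1b reached the level filter only through its proximal libraries, so these counts describe the list and do not test it. In 6 of the 8 markers every proximal library lay above every distal library, and in Bcl2 every proximal library lay below. Among all tested genes, 15.8% were separated in the first way and 13.0% in the second, 28.8% together.

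**Figure D1:**
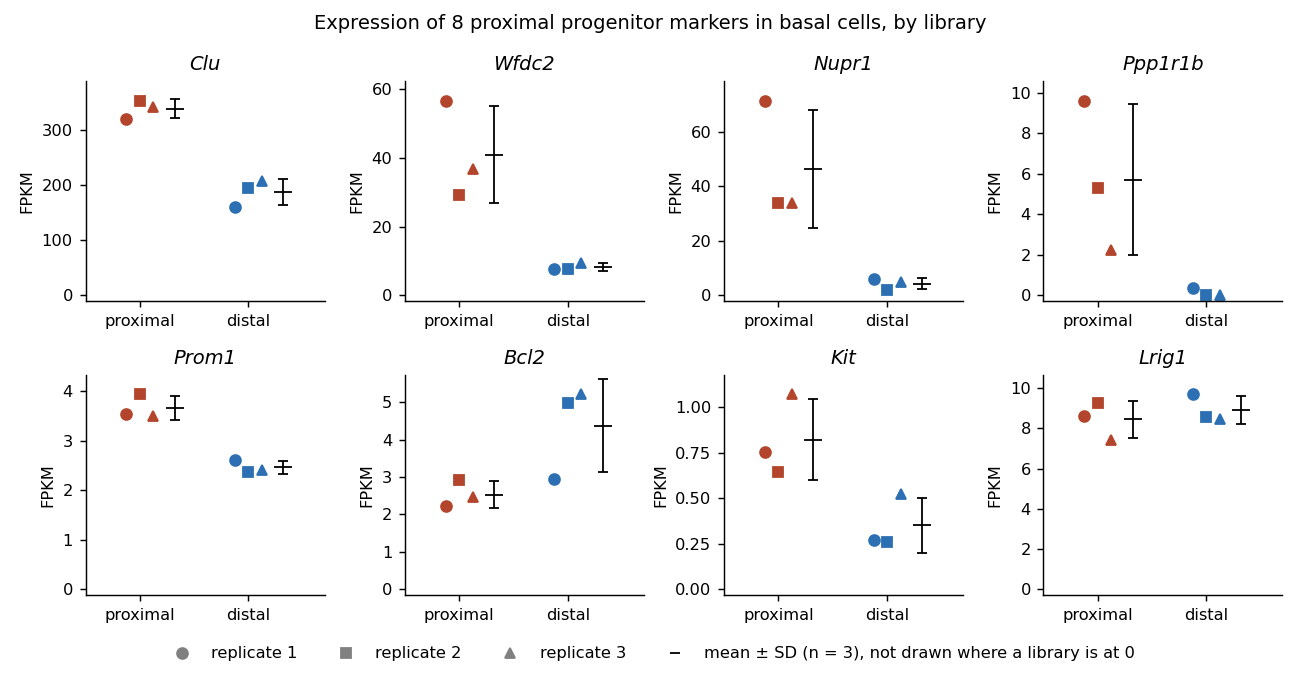
FPKM of the 8 markers in each of the 3 proximal (red) and 3 distal (blue) libraries, with a panel per gene, its own linear axis that includes 0 and black bars for the mean ± SD (n = 3). No bar is drawn for distal Ppp1r1b, where a library is at 0. Wfdc2, Nupr1 and Ppp1r1b are far apart between the groups and highest in proximal replicate 1, Clu is abundant in both groups, Bcl2 is the one marker with all proximal libraries below the distal ones, and Lrig1 overlaps.

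The markers differed widely in level. Clu, at 339 FPKM, led the order in proximal cells, followed by Nupr1 at 46.4 and Wfdc2 at 41.0 FPKM, Lrig1 at 8.44, Ppp1r1b at 5.72 and Prom1 at 3.66 FPKM, Bcl2 at 2.53 and Kit at 0.823 FPKM (means of 3 libraries). The libraries of Nupr1 and Wfdc2 overlapped, and so did those of Lrig1 with Ppp1r1b and of Ppp1r1b with Prom1, so the order within these pairs is not beyond their spread. In distal cells Clu led again at 188 FPKM, followed by Lrig1 at 8.90, Wfdc2 at 8.22, Bcl2 at 4.38, Nupr1 at 4.30, Prom1 at 2.47 and Kit at 0.351 FPKM, with Ppp1r1b last. There the neighbours that overlapped were Lrig1 with Wfdc2, Bcl2 with Nupr1, Nupr1 with Prom1, and Kit with Ppp1r1b.

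A marker was counted as already high in distal cells where its distal mean was at least 10 FPKM. Clu met this, with a distal mean at percentile 96.8 of the tested genes, and the other 7 markers did not. The nearest below the threshold were Lrig1 at 8.90 and Wfdc2 at 8.22 FPKM. The proximal means of Clu, Nupr1 and Wfdc2 stood at percentiles 98.4, 86.3 and 84.8 of the tested genes. The distal means of Nupr1 and Wfdc2 stood at percentiles 30.9 and 48.7.

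Clu and Wfdc2 encode secreted proteins. Clusterin is an extracellular chaperone that binds misfolded proteins and inhibits complement, and its expression in the rodent prostate is known to rise after castration. Clu (ENSMUSG00000022037.15, chromosome 14, 65968483 to 65981547, plus strand) was at 320, 354 and 343 FPKM in the proximal libraries, against 161, 195 and 208 FPKM in the distal libraries. The groups did not overlap, and both were tight. Clu averaged 339 ± 17.0 FPKM in proximal cells and 188 ± 24.5 FPKM in distal cells (SD, n = 3 each). The log2 fold change was 0.85 ± 0.13 (SE, 95% interval 0.57 to 1.14; limma, adjusted p = 0.00736). Clu therefore stood high in both regions and higher in proximal cells. In bulk samples such as these, a different share of expressing cells and a different amount of RNA per cell cannot be told apart, and this holds for every marker.

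WFDC2 is a small secreted protein of the whey acidic protein (WAP) family, whose members carry the four-disulfide core fold and often inhibit proteases. Wfdc2 (ENSMUSG00000017723.11, chromosome 2, 164562413 to 164568510, plus strand) was at 56.7, 29.3 and 36.9 FPKM in the proximal libraries, against 7.57, 7.61 and 9.50 FPKM in the distal libraries. Each proximal library was well above every distal one, and proximal replicate 1 was the highest. The means were 41.0 ± 14.1 FPKM in proximal cells and 8.22 ± 1.10 FPKM in distal cells (SD, n = 3 each), a 4.98-fold ratio. The log2 fold change was 2.14 ± 0.22 (SE, 95% interval 1.62 to 2.66; limma, adjusted p = 0.00192). The measured transcript, uc008nve.1, begins at the start site of the Wfdc2 sequence shown above.

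Nupr1 showed the largest log2 fold change of the tested markers with the pseudocount of 1, while Ppp1r1b exceeded it with a pseudocount of 0.1. It encodes a small nuclear stress protein that is known to be induced through ATF4 when cells meet nutrient or endoplasmic reticulum stress. Nupr1 (ENSMUSG00000030717.9, chromosome 7, 126623249 to 126630861, minus strand) was at 71.4, 33.9 and 33.8 FPKM in the proximal libraries, against 5.92, 2.18 and 4.81 FPKM in the distal libraries. The lowest proximal library was thus several times the highest distal one, and proximal replicate 1 again stood highest. Nupr1 averaged 46.4 ± 21.7 FPKM in proximal cells and 4.30 ± 1.92 FPKM in distal cells (SD, n = 3 each), a 10.8-fold ratio. The log2 fold change was 3.14 ± 0.36 (SE, 95% interval 2.31 to 3.97; limma, adjusted p = 0.00271). Its transcript begins at the start site of the Nupr1 sequence above, the one window printed here with the ATF4-C/EBP letters.

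Ppp1r1b encodes DARPP-32, a regulator that inhibits protein phosphatase 1 when phosphorylated by protein kinase A and is best known from neurons that receive dopamine. Ppp1r1b (ENSMUSG00000061718.12, chromosome 11, 98348404 to 98357796, plus strand) was at 9.62, 5.31 and 2.23 FPKM in the proximal libraries, against 0.349, 0.0212 and 0 FPKM in the distal libraries. It was detected in every proximal library, at levels that spread widely, and was at or close to 0 in the distal ones. The implied number of fragments was 337, 172 and 95.5 in proximal and 9.56, 1.01 and 0 in distal libraries. The log2 fold change was 2.43 ± 0.39 (SE, 95% interval 1.54 to 3.33; limma, adjusted p = 0.0109), on a scale that understates the change of a gene this low in distal cells. The call was lost without proximal replicate 2 (adjusted p = 0.0554) and without distal replicate 2 (adjusted p = 0.0544), with log2 fold changes of 2.40 and 2.37. With a pseudocount of 0.1 in place of 1 the log2 fold change was 4.82 and with 0.5 it was 3.17.

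Proximal replicate 1 was the highest proximal library for Wfdc2, Nupr1 and Ppp1r1b, but not for the other 5 markers. In these 3 genes it was 1.71, 2.11 and 2.55 times the mean of proximal replicates 2 and 3. Without proximal replicate 1 the log2 fold changes were 1.88 for Wfdc2, 2.79 for Nupr1 and 2.02 for Ppp1r1b (limma, adjusted p = 0.00145, 0.00444 and 0.0115), so the calls did not rest on that library. The mean of proximal replicates 2 and 3 was 4.03 times the distal mean for Wfdc2 and 7.87 times for Nupr1.

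**Figure D2:**
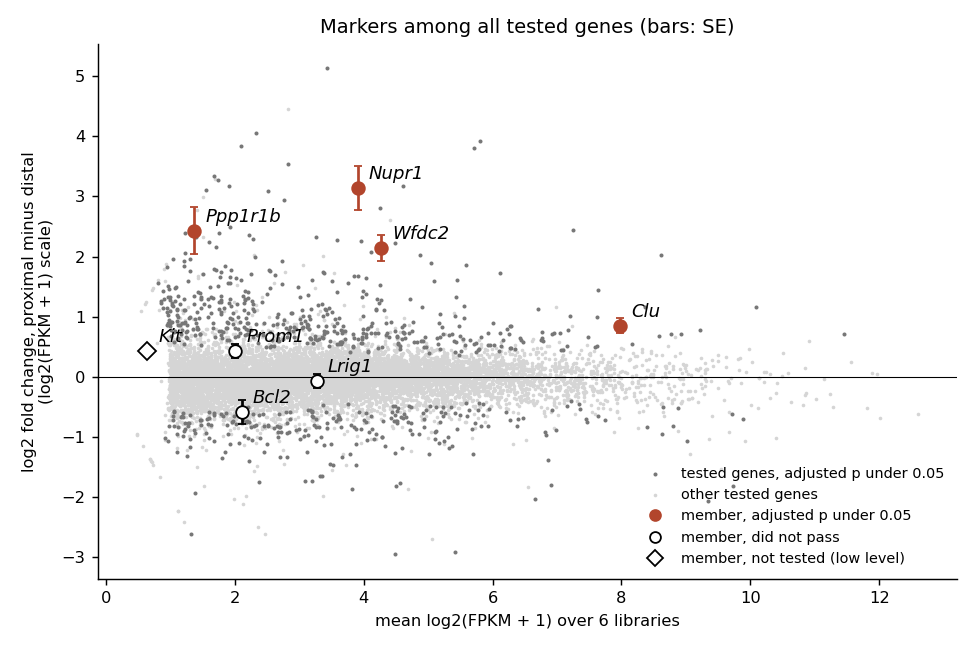
Log2 fold change (proximal minus distal, log2(FPKM + 1) scale) against mean log2(FPKM + 1) over 6 libraries for the 10255 tested genes, dark grey where called, with the 8 markers labelled and bars of 1 SE. Nupr1 at 3.14, Ppp1r1b at 2.43 and Wfdc2 at 2.14 lie high above the bulk of genes, Clu at 0.85 stands among abundant genes, and Prom1, Bcl2, Lrig1 and the untested Kit lie near the bulk.

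The markers of the cell surface, Prom1, Kit and Lrig1, differed little or were low. Prominin-1 (CD133) is a membrane glycoprotein of apical protrusions that has been used to sort stem cells. Prom1 (ENSMUSG00000029086.15, chromosome 5, 43993620 to 44102032, minus strand) was at 3.54, 3.94 and 3.51 FPKM in the proximal libraries, against 2.62, 2.37 and 2.42 FPKM in the distal libraries. The groups did not overlap, yet the difference was small. The means were 3.66 ± 0.241 FPKM in proximal cells and 2.47 ± 0.131 FPKM in distal cells (SD, n = 3 each), and the log2 fold change of 0.43 ± 0.12 did not pass (SE, 95% interval 0.14 to 0.71; limma, adjusted p = 0.0810).

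KIT is the receptor tyrosine kinase for stem cell factor. Kit (ENSMUSG00000005672.12, chromosome 5, 75574916 to 75656722, plus strand) was at 0.752, 0.643 and 1.07 FPKM in the proximal libraries, against 0.271, 0.259 and 0.524 FPKM in the distal libraries. Every proximal library was higher, but the mean over all 6 libraries was below the filter of 1 FPKM, so Kit was not in the main test. The implied fragments were 70.2 to 143 per proximal library and 29.0 to 58.3 per distal library. The ratio of means was 2.34 and the log2 fold change 0.43. With no filter on low values Kit did not pass (limma, adjusted p = 0.130).

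LRIG1 is a transmembrane protein that restrains ERBB and other receptor tyrosine kinases, and it marks stem cells in several epithelia. Lrig1 (ENSMUSG00000030029.14, chromosome 6, 94604529 to 94700158, minus strand) was at 8.62, 9.27 and 7.43 FPKM in the proximal libraries, against 9.69, 8.57 and 8.45 FPKM in the distal libraries. The groups overlapped. Lrig1 averaged 8.44 ± 0.933 FPKM in proximal cells and 8.90 ± 0.679 FPKM in distal cells (SD, n = 3 each). The log2 fold change was -0.07 ± 0.12 (SE, 95% interval -0.36 to 0.21; limma, adjusted p = 0.774), and its sign turned under some alternative settings. Of the 8 markers, Lrig1 was the only one whose libraries overlapped between the groups.

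BCL2 protects cells from apoptosis at the mitochondrion. Bcl2 (ENSMUSG00000057329.7, chromosome 1, 106538178 to 106714274, minus strand) was at 2.22, 2.91 and 2.46 FPKM in the proximal libraries, against 2.94, 4.98 and 5.21 FPKM in the distal libraries. The proximal values lay below all distal values, the opposite of the direction implied by its use as a proximal marker, although distal replicate 1 was close to the proximal libraries. The means were 2.53 ± 0.348 FPKM in proximal cells and 4.38 ± 1.25 FPKM in distal cells (SD, n = 3 each). The log2 fold change of -0.58 ± 0.20 did not pass (SE, 95% interval -1.04 to -0.13; limma, adjusted p = 0.120). Without distal replicate 1 it was -0.79 and Bcl2 was called lower (limma, adjusted p = 0.0183). In that setting 614 of all tested genes were called lower, against 256 in the main test. Distal replicate 1 also differed from the other distal libraries in immediate early genes, which respond to tissue dissociation. The summed level of 17 such genes was 8592, 9501 and 10808 FPKM in the proximal libraries, against 11296, 19440 and 20600 FPKM in distal replicates 1, 2 and 3. Of these 17 genes 3 were called lower in proximal cells and none was called higher. None had a log2 fold change above 0, and the median was -0.90 (-0.01 over all tested genes). Their part in the Bcl2 difference was not tested.

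The deposited values are given per transcript, which shows where the gene totals came from. Cufflinks divides fragments between overlapping transcripts, so the split within a gene is less certain than its total. At the level of single transcripts, 417 of 13434 tested, or 3.10%, were called in either direction. The transcripts of Clu, Wfdc2 and Nupr1, each the only one matched to its gene, were called (limma, adjusted p = 0.0196, 0.00961 and 0.0133). With no filter on low values, the Clu transcript (uc007ujs.2) did not pass (adjusted p = 0.0552). It was also lost on leaving out replicate 2 or 3 of either group, with an adjusted p of up to 0.102. The Nupr1 transcript (uc009jsd.1) was lost on leaving out the same libraries one at a time, with an adjusted p of up to 0.0658, and the Wfdc2 transcript (uc008nve.1) was lost without distal replicate 2 (limma, adjusted p = 0.0622).

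In Ppp1r1b, the transcript uc007lfz.1, which starts furthest upstream, held 72.4% of the proximal total. It was at 6.31, 3.89 and 2.23 FPKM in the proximal libraries, against 0.0940, 0 and 0 FPKM in the distal libraries, and was called higher, and its log2 fold change was 2.24 ± 0.32 (SE; limma, adjusted p = 0.0209; 0.0605 with no filter on low values). The call was also lost without proximal replicate 2, distal replicate 2 or distal replicate 3 (limma, adjusted p = 0.10, 0.0948 and 0.0893). The shorter uc007lgb.1, which starts further downstream, was at 3.31, 1.42 and 0 FPKM in the proximal libraries, against 0.255, 0 and 0 FPKM in the distal libraries. Proximal replicate 3, the lowest proximal library, therefore had no fragments assigned to the shorter transcript.

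Of 12 Prom1 transcripts, 2 had values above 0, and they begin at the outer and the inner start site whose sequences are printed above. The outer transcript, uc008xif.2, was at 2.81, 3.34 and 2.86 FPKM in the proximal libraries, against 2.23, 1.87 and 0.822 FPKM in the distal libraries. Its log2 fold change of 0.64 ± 0.25 did not pass (SE; limma, adjusted p = 0.242). The inner transcript, uc012dvw.1, was at 0.724, 0.597 and 0.648 FPKM in the proximal libraries, against 0.388, 0.494 and 1.60 FPKM in the distal libraries. Most Prom1 signal thus came from the outer start, except in distal replicate 3, where the inner transcript was higher.

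The 2 Bcl2 transcripts, the 7207-base uc007cgw.2 and the 2517-base uc011wqb.2, showed the same direction. The long one was at 1.14, 1.20 and 0.872 FPKM in proximal libraries, against 1.38, 2.68 and 2.52 FPKM in distal libraries (log2 fold change -0.60 ± 0.23, SE; limma, adjusted p = 0.244). The short one was at 1.08, 1.71 and 1.59 FPKM in proximal libraries, against 1.56, 2.30 and 2.69 FPKM in distal libraries (log2 fold change -0.36 ± 0.21, SE; limma, adjusted p = 0.421). Neither passed. In Kit, nearly all signal lay in uc008xug.2 and uc012dxj.1, full-length transcripts that differ by 12 bases in length, and the division of fragments between such similar transcripts is uncertain. The longer was at 0.353, 0.466 and 0.854 FPKM in the proximal libraries, against 0, 0 and 0.440 FPKM in the distal libraries. The shorter was at 0.399, 0.177 and 0.220 FPKM in the proximal libraries, against 0.271, 0.259 and 0 FPKM in the distal libraries.

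**Figure D3:**
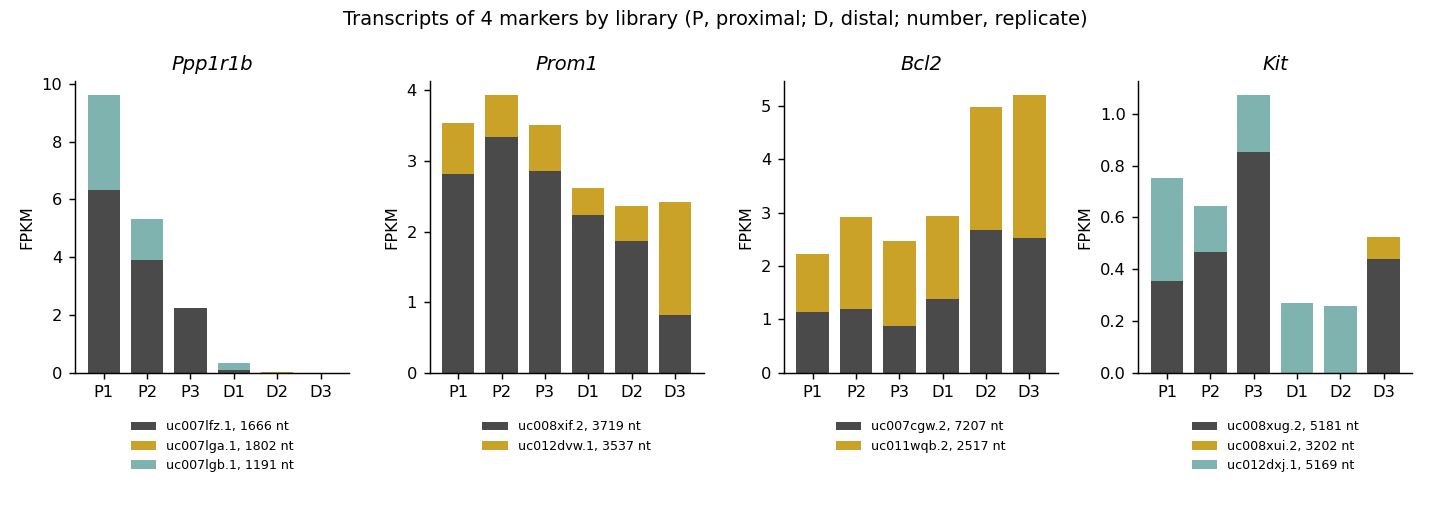
FPKM of the transcripts of Ppp1r1b, Prom1, Bcl2 and Kit in each proximal (P1 to P3) and distal (D1 to D3) library, stacked to the gene total on linear axes. The upstream transcript uc007lfz.1 carries most of Ppp1r1b, the outer transcript uc008xif.2 carries most of Prom1 in all libraries but D3, and both Bcl2 transcripts are highest in D2 and D3.

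Most of the other genes known from proximal luminal progenitors were higher in proximal cells. Of 17 tested genes of that list outside the 8 markers, 11 were higher, 6 did not pass and none was lower. The median log2 fold change was 1.45 (-0.01 over all tested genes), and 4.52% of all tested genes were higher. Psca and Cldn10, with distal means of 0.872 and 0.268 FPKM, reached the level filter only through their proximal libraries. The count therefore describes the list and does not test it. Psca, a surface antigen, was at 80.0, 51.9 and 60.6 FPKM in proximal and at 1.46, 0.678 and 0.480 FPKM in distal libraries (limma, adjusted p = 3.16e-05). Tspan8, a tetraspanin, had a log2 fold change of 3.54, and the keratins Krt7 and Krt19 had 2.45 and 2.03 (limma, adjusted p = 5.2e-05, 0.000143 and 0.000143). Gpx3, a glutathione peroxidase, and Sox2, a transcription factor, named after their values were seen, had log2 fold changes below 0 (-0.28 and -0.26) and missed the threshold (limma, adjusted p = 0.177 and 0.383). Gpx3 was at 8.03, 9.39 and 8.95 FPKM in proximal and at 10.2, 11.3 and 11.2 FPKM in distal libraries, so every proximal library lay below every distal one. Of 18 tested genes known from castration-resistant or stem cells, none was higher, 2 were lower, and 16 missed the threshold, with a median log2 fold change of 0.05. One of those that were lower was Axin2, a Wnt feedback gene, at 1.63, 1.61 and 1.55 FPKM in proximal and 2.95, 5.84 and 5.55 FPKM in distal libraries (limma, adjusted p = 0.0230, and up to 0.0986 on leaving out replicate 2 or 3 of either group). Cd44, an adhesion receptor, and Aldh1a1, a retinaldehyde dehydrogenase, had log2 fold changes of 0.63 and -0.62 and did not pass (limma, adjusted p = 0.0787 and 0.0773). Without proximal replicate 1 both were called, Cd44 higher and Aldh1a1 lower (limma, adjusted p = 0.0104 and 0.0116).

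Relatives of WFDC2 were mostly silent. Of 22 WAP family genes with a value, 17 were under 1 FPKM in every library and 3 were tested. Beside Wfdc2, these were Wfdc1, which had a log2 fold change of -0.15 and did not pass (limma, adjusted p = 0.618), and Slpi, a secreted inhibitor of leukocyte proteases. Slpi lies on chromosome 2, 173318 bases from Wfdc2, and ran in the opposite direction. It was at 0.288, 0.318 and 0.367 FPKM in the proximal libraries, against 1.22, 6.02 and 7.43 FPKM in the distal libraries (log2 fold change -1.94 ± 0.45, SE; limma, adjusted p = 0.0404). The Slpi call was lost on leaving out any library but distal replicate 1, with adjusted p up to 0.160.

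Several genes that act beside clusterin on complement or bind it were higher in proximal cells. Of 8 tested receptors of clusterin and regulators of complement, 4 were higher, 4 did not pass and none was lower, with a median log2 fold change of 0.66. Cd55, which speeds the decay of complement convertases at the cell surface, was at 28.6, 17.3 and 17.0 FPKM in proximal and 3.02, 3.02 and 3.85 FPKM in distal libraries, and its log2 fold change was 2.32 ± 0.21 (SE; limma, adjusted p = 0.000867). Cd59a, an inhibitor of the membrane attack complex, was higher by 0.93, and Vldlr, a lipoprotein receptor that can bind clusterin, by 0.81 (log2; limma, adjusted p = 0.0246 and 0.0280). On leaving out 1 library, the adjusted p rose to 0.0991 for Cd59a (replicate 2 or 3 of either group) and to 0.106 for Vldlr (proximal replicate 2 or 3 or distal replicate 2).

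Few genes of the integrated stress response, through which Nupr1 is known to be induced, passed the test. Of 20 tested, 1 was higher, 19 did not pass and none was lower, with a median log2 fold change of 0.06, and the gene that was higher was Vldlr, named above. Atf4, the transcription factor at the centre of the response, was at 483, 355 and 366 FPKM in proximal and 467, 435 and 459 FPKM in distal libraries. Ddit3, its target and a pro-apoptotic factor, was at 17.1, 13.8 and 14.3 FPKM in proximal and 15.6, 24.8 and 20.9 FPKM in distal libraries. Neither passed (limma, adjusted p = 0.458 and 0.207), and both were picked for mention after their values were seen. Without distal replicate 1, Ddit3 was called lower in proximal cells (log2 fold change -0.57; limma, adjusted p = 0.0458). Psat1, a serine synthesis enzyme, Slc7a11, a cystine transporter, and Ddit4, an inhibitor of mTOR signalling, had log2 fold changes of 0.48, 0.83 and -0.85 and did not pass (limma, adjusted p = 0.0588, 0.0755 and 0.0690). Without distal replicate 1, Psat1 and Slc7a11 were called higher and Ddit4 lower (limma, adjusted p = 0.0256, 0.0379 and 0.0170).

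Ppp1r1b was the only one of 23 tested genes of the protein phosphatase 1 and DARPP-32 network to pass, and the median log2 fold change of that list was -0.01. The next by p were Pde4d, a cyclic AMP phosphodiesterase, Prkar2b, a regulatory subunit of protein kinase A, and Ppp1r10, a nuclear phosphatase 1 subunit. Their log2 fold changes were 0.71, -0.70 and -1.13 (limma, adjusted p = 0.0821, 0.0839 and 0.0949). Ppp1r10 was called lower without proximal or distal replicate 1 (adjusted p = 0.0398 and 0.0311) and Prkar2b without proximal replicate 1 (adjusted p = 0.00931). None of the 4 tested prominins and tweety homologs passed. Prom2, the paralog of Prom1, was at 14.2, 13.3 and 9.92 FPKM in proximal and 8.63, 9.13 and 7.98 FPKM in distal libraries (limma, adjusted p = 0.0942), and so was the more abundant of the 2 prominins in both groups.

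The BCL2 family showed no common direction. Of 16 tested members, 1 was higher, 1 was lower, and 14 missed the threshold, with a median log2 fold change of -0.15. Bik, a pro-apoptotic BH3-only gene, was at 6.57, 8.68 and 11.1 FPKM in proximal and 3.73, 4.81 and 4.75 FPKM in distal libraries (limma, adjusted p = 0.0378). Bcl2l11, which encodes the BH3-only protein BIM, was at 3.50, 3.57 and 2.50 FPKM in proximal and 4.99, 6.19 and 5.39 FPKM in distal libraries (limma, adjusted p = 0.0450). On leaving out 1 library the adjusted p rose to 0.144 for Bik (any library but proximal replicate 1) and to 0.184 for Bcl2l11 (replicate 2 or 3 of either group). Bid and Bad, both pro-apoptotic, had log2 fold changes of 0.80 and -0.45 and did not pass (limma, adjusted p = 0.0961 and 0.107). Without proximal replicate 1, Bid was called higher (log2 fold change 1.10; limma, adjusted p = 0.00925).

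The ligand of KIT was far more abundant than its receptor. Kitl, stem cell factor, was at 30.8, 21.9 and 17.5 FPKM in proximal and 35.4, 40.0 and 40.0 FPKM in distal libraries. All proximal libraries were lower, but the log2 fold change of -0.73 ± 0.19 did not pass (SE, limma, adjusted p = 0.0588), and without proximal replicate 1 it was -0.93 and called (limma, adjusted p = 0.00925). Rescaling the libraries also called it lower (adjusted p = 0.0413 with median ratio scaling and 0.0402 with quantile normalization), as did the use of the top transcript alone (adjusted p = 0.0190). Of 19 tested genes of KIT signalling, 1 was higher, 18 did not pass and none was lower, with a median log2 fold change of 0.04. The gene that passed was Fyn, a Src family kinase, with a log2 fold change of 0.57 (limma, adjusted p = 0.0343, and up to 0.131 on leaving out replicate 2 or 3 of either group).

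Among 11 tested genes of the LRIG family and the receptors it acts on, Met passed, and 10 did not. Met, the receptor of hepatocyte growth factor and a known target of LRIG1, was at 44.9, 51.1 and 49.0 FPKM in proximal and 25.0, 28.2 and 27.1 FPKM in distal libraries, and its log2 fold change was 0.83 ± 0.10 (SE; limma, adjusted p = 0.00348). Ret, another receptor tyrosine kinase, had a log2 fold change of 0.53 (limma, adjusted p = 0.0544). The paralogs Lrig2 and Lrig3 had -0.34 and -0.41 (limma, adjusted p = 0.357 and 0.446). None of these 3 passed, although Lrig2 and Lrig3 were called lower without distal replicate 1 (adjusted p = 0.0405 and 0.0223).

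**Figure D4:**
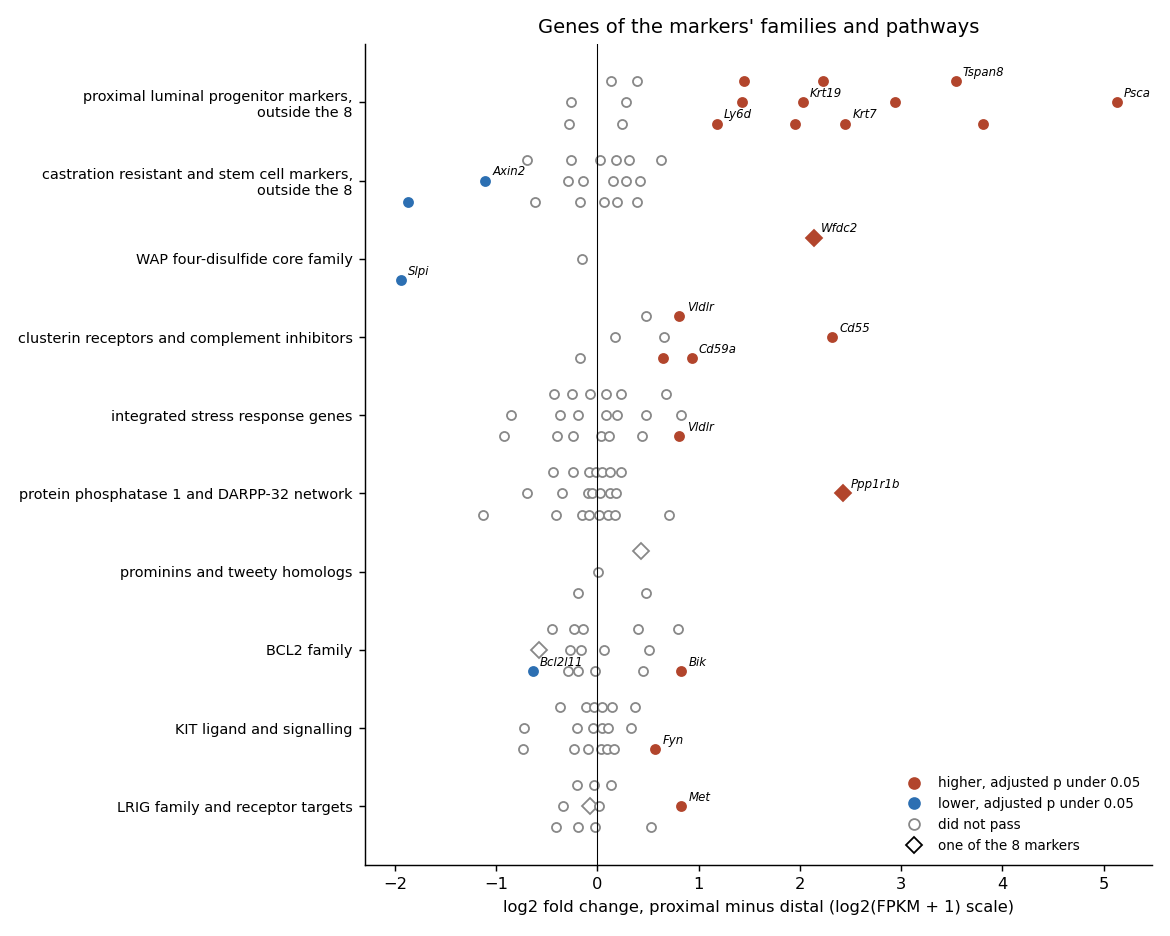
Log2 fold change (proximal minus distal, log2(FPKM + 1) scale) of each tested gene in 10 lists, with filled symbols for genes that passed the test, coloured by direction and named where the text names them, and diamonds for the 8 markers. The proximal luminal list reaches from Ly6d at 1.18 to Psca at 5.13 among its 11 called genes, while the other lists centre close to 0 apart from the clusterin and complement list.

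Markers of other cell types were measured in the same libraries. Secretory luminal markers summed to 2902, 2759 and 2872 FPKM in proximal and 3169, 2350 and 2464 FPKM in distal libraries. Most of these sums came from the keratins Krt18 and Krt8, with means of 1279 and 598 FPKM in proximal and 1266 and 546 FPKM in distal cells. Of 12 tested genes of this list, 1 was higher (Msmb, a secreted protein), 2 were lower (Hoxb13, a homeobox gene, among them), and 9 did not pass. Hoxb13 had an adjusted p of 0.0250 (limma), and up to 0.102 on leaving out replicate 2 or 3 of either group. The 20 proximal luminal genes outside the markers summed to 3361 to 3755 FPKM in proximal and 1711 to 1907 FPKM in distal libraries, with the highest sum in proximal replicate 1, the library highest for Wfdc2, Nupr1 and Ppp1r1b. The part of luminal cells in the differences of these markers was not tested.

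KIT is also a defining receptor of mast cells and melanocytes, and these lists bear on Kit. Of 12 mast cell genes, 10 were under 1 FPKM in every library, and the protease genes Tpsab1 and Cma1 were listed at 0 in all 6. The list summed to 7.24 to 8.14 FPKM in proximal and 2.97 to 4.67 FPKM in distal libraries, most of it Gata2, which other cells also express. Gata2 was higher in proximal cells (log2 fold change 1.10; limma, adjusted p = 0.0114, and 0.0624 without proximal replicate 2). Of 9 melanocyte genes, 7 were under 1 FPKM in every library and Pmel was listed at 0 in all, with sums of 3.68 to 4.70 FPKM in proximal and 1.68 to 2.26 FPKM in distal libraries. Most of these sums came from Ednrb, which did not pass (log2 fold change 0.52; limma, adjusted p = 0.103), and Sox10, which is also in the nerve and glia list. The neuroendocrine list had 7 of 8 genes under 1 FPKM in every library and none tested, with sums of 0.837 to 2.13 FPKM in proximal and 0.169 to 0.410 FPKM in distal libraries.

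Endothelial and glial genes moved with the duct region. Of 11 tested endothelial genes, 6 were higher and none was lower, with a median log2 fold change of 1.09 and sums of 35.4 to 49.4 FPKM in proximal and 8.07 to 24.6 FPKM in distal libraries. Of 6 tested nerve and glia genes, 3 were higher and none was lower, with sums of 23.8 to 30.7 FPKM in proximal and 17.3 to 21.0 FPKM in distal libraries. Of 13 tested fibroblast and smooth muscle genes, 5 were higher and none was lower, with sums of 827 to 857 FPKM in proximal and 867 to 910 FPKM in distal libraries. The sums mostly reflect 1 gene, Dcn, whose mean was 679 FPKM on the proximal side against 769 on the distal side. Dcn did not pass (log2 fold change -0.18; limma, adjusted p = 0.365). Col3a1, Pdgfrb and Col1a1, among the 5 that were higher, had log2 fold changes of 0.98, 0.86 and 0.66 (limma, adjusted p = 0.00736, 0.0114 and 0.0395). Leukocyte genes summed to 8.24 to 14.4 FPKM in proximal and 13.1 to 15.4 FPKM in distal libraries, with Cd3g and Cd8a listed at 0 in all 6. BCL2 and KIT are also known from some of these cell types, and the part of such cells in the markers' values was not tested.

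Seminal vesicle genes were present in part of the proximal libraries. They summed to 0.568, 166 and 437 FPKM in proximal replicates 1, 2 and 3, against 0.505, 1.69 and 0.535 FPKM in the distal libraries, mostly Svs5, with Svs4 in proximal replicate 2 and Svs2 in proximal replicate 3, all secreted proteins of the seminal vesicle. Proximal replicate 1, where Wfdc2, Nupr1 and Ppp1r1b were highest, had a sum near that of the distal libraries. The part of seminal vesicle material in the markers' values was not tested. Of 5 tested urothelial genes, 2 were higher, 2 were lower, and 1 missed the threshold. Krt13, a keratin of stratified epithelia and urothelium, was higher by 2.08 on the log2 scale (limma, adjusted p = 9.49e-05). Upk1a, a uroplakin, was at 5.77, 2.34 and 2.03 FPKM in proximal and 0.980, 0.399 and 0.498 FPKM in distal libraries (limma, adjusted p = 0.0398, and up to 0.153 on leaving out replicate 2 or 3 of either group). Of those that were lower, Ivl, which encodes the cornified envelope protein involucrin, was at 82.5, 77.9 and 80.8 FPKM in proximal and 143, 161 and 175 FPKM in distal libraries (limma, adjusted p = 0.00234). Krt20, a keratin of urothelial umbrella cells, was at 1.56, 1.04 and 1.03 FPKM in proximal and 4.29, 2.86 and 3.80 FPKM in distal libraries (limma, adjusted p = 0.0114, but 0.0618 without proximal replicate 2 and 0.0531 without distal replicate 3). Prostate basal markers were all expressed, and of 11 tested 4 were higher, 7 did not pass and none was lower.

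**Figure D5:**
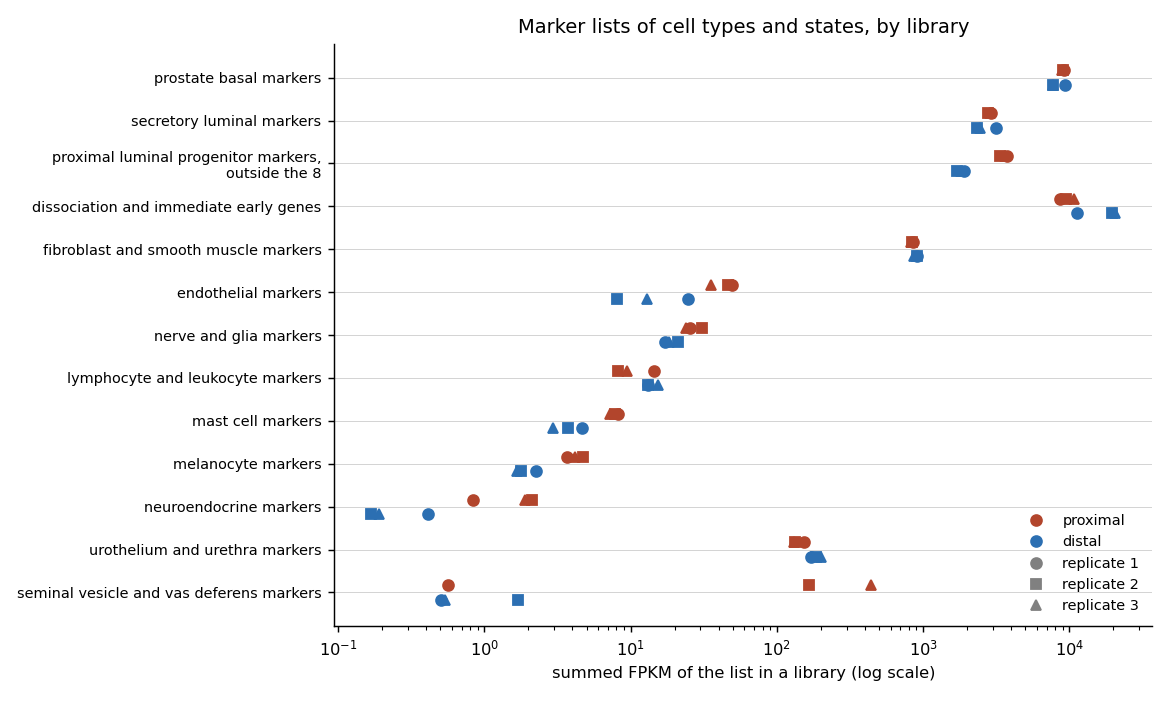
Summed FPKM of 13 marker lists in each library on a log scale, proximal (red) above distal (blue), with symbols for the replicate number. Basal and secretory luminal sums overlap between the groups, endothelial, glial and proximal luminal sums are higher in all proximal libraries, and seminal vesicle sums are high in proximal replicates 2 and 3 but not 1.

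For each tested marker, the 3 genes with the most similar profile over the 6 libraries were found by Pearson's r of log2(FPKM + 1) among the 6461 genes that averaged 5 FPKM or more. These correlations largely restate the difference between the duct regions, rest on 6 shared libraries and are given as a description. The genes were picked for this similarity, so a direction shared with the marker follows from the choice. Clu was closest to Kcne4 (r = 0.997), a potassium channel subunit, then Sgf29 (0.996) and Vwa1 (0.995), an extracellular matrix protein. Wfdc2 was closest to Phldb2 (0.996), Cd55 (0.995) and Tspan5 (0.995), a tetraspanin, so the complement regulator named above has nearly the profile of Wfdc2. Nupr1 was closest to Cpq (0.997), Wnt7b (0.996), a Wnt ligand, and Cd82 (0.994), another tetraspanin, all 3 of which passed the test in the same direction (limma, adjusted p = 0.0123, 0.00362 and 0.0109). Without distal replicate 2, Cpq and Cd82 no longer passed (adjusted p = 0.0568 and 0.0526).

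Ppp1r1b was closest to Scamp2 (0.996), Nab1 (0.991) and Dirc2 (0.990), none of which passed the test, although Dirc2 did without distal replicate 1 (adjusted p = 0.0479). Prom1 was closest to Gfpt1 (0.995), the entry enzyme of hexosamine synthesis, Entpd2 (0.994), an ectonucleotidase, and Fam185a (0.993). Bcl2 was closest to Pias1 (0.994), Spin4 (0.992) and Eml1 (0.990), which had log2 fold changes of -0.54, -0.82 and -0.72 and, like Bcl2, did not pass (limma, adjusted p = 0.110, 0.0719 and 0.0690). Without distal replicate 1, all 3 were called lower, as Bcl2 was (limma, adjusted p = 0.0103, 0.00280 and 0.0110). This follows from their choice by a profile like that of Bcl2 and adds no support. Lrig1 was closest to Agr2 (0.994), Fam91a1 (0.987) and Cmtr2 (0.978), none of which passed.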

How the data were processed

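Total RNA of 6 sorted basal cell samples was made into cDNA with random and oligo(dT) primers and run on an Illumina HiSeq instrument, as the labels' protocols describe. The authors used bcl2fastq 1.8.3, TopHat and Cufflinks with the mm10 build, per the submitters' processing notes, and the sources used here do not give the annotation. The deposited files give FPKM for 63241 transcripts per library, with an interval and a status, and the coverage of each transcript, a signal that was not used in any test, per the file headers. FPKM values were used as deposited.

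Transcripts were matched to the M21 release of GENCODE, on GRCm38 (identical to mm10), by span and spliced length, with a minimum score of 0.5, or by an exon share of at least 0.8, and FPKM was summed per gene. This matched 53323 transcripts with 93.9% of the FPKM. In a check on 2000 reference transcripts with altered ends, 90.0% found a gene, which was the right one in 99.8%. Genes averaging 1 FPKM or more over the 6 libraries entered a fit of log2(FPKM + 1) by limma 3.58.1 under R 4.3.3 (lmFit, eBayes with trend, two-sided, no covariates), and the procedure was tested on simulated data. Fold changes on this scale understate the change of low genes. A gene near 0 in either group could pass the filter only through the other group, so counts of list genes called describe the lists and do not test them. A value of exactly 0 may be a failed estimate, and 140 tested genes had one. Fragment numbers were derived from the widths of the deposited intervals. Strand is not stated, so reads of genes that overlap on opposite strands cannot be separated.

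The 8 markers, the 22 other gene lists and the alternatives were chosen with earlier results of these data known. Named genes are the markers, up to 4 genes of smallest p per list, the 2 most abundant genes of each list of another cell type, the 3 nearest profiles per marker, and Krt5, Krt14 and Trp63. Some list genes are left unreported here. Replicate numbers were not used as pairs. The 18 alternative settings are described in the closing section.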

Additional observations from a re-analysis of the deposited data

How the results depend on the processing

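Under 18 alternative settings, Clu, Wfdc2 and Nupr1 kept their direction and their call, with log2 fold changes on leaving out 1 library of 0.75 to 0.93, 1.88 to 2.35 and 2.79 to 3.37. Ppp1r1b kept its direction, with 2.02 to 2.88 on leaving out 1 library, and lost its call at the values given in the report. Prom1 was called with array weights (0.50, adjusted p = 0.00700) and without both libraries numbered 1 (0.48, adjusted p = 0.0459), and ranged from 0.38 to 0.46 on leaving out 1 library. Bcl2 was called lower with array weights (-0.66), without both libraries numbered 1 (-0.73) and without distal replicate 1, with a range of -0.79 to -0.46 on leaving out 1 library. The number of markers called lower was then 1 in place of 0. The sign of Lrig1 turned with array weights (0.03) and without proximal replicate 3 (0.01), with a range of -0.13 to 0.01 on leaving out 1 library, and its transcript had 0.00 and 0.01 in these settings. Genes near 0 also turned: with array weights Agr2 had 0.03, Cmtr2 0.01 and Fam91a1 0.02, and Fam91a1 ranged from -0.06 to 0.01 on leaving out 1 library, with 0.00 without distal replicate 1. All these genes are far from the threshold, and the cause was not tested.

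The number of all genes called moved more. Against 464 higher and 256 lower, there were 273 and 168 at a mean of at least 5 FPKM (fewer genes tested), 1353 and 1859 with array weights, and 881 and 1328 without both libraries numbered 1. With no filter 137 were lower, and with the top transcript of each gene 169. Leaving out 1 library gave 192 to 550 higher and 45 to 614 lower, with the 614 lower reached without distal replicate 1. With the replicate number as a block there were 880 higher and 732 lower, the 4 markers stayed called, and Bcl2 was called lower (-0.58, adjusted p = 0.0498), so 1 marker was lower. Deviations of libraries with equal numbers correlated at 0.38, 0.04 and 0.29. Replicates 1 and 3 were each closest to the library of equal number, while proximal replicate 2 was closer to distal replicate 3 (0.16). These values do not settle whether equal numbers are pairs. The numbers were not taken as pairs because the labels do not say that they share an animal or a day. With no filter, calls with an adjusted p above about 0.02 in the named genes of families and cell type lists were mostly lost, for example Krt5 (0.0585) and Slpi (0.0999). Kit, at under 150 implied fragments in any library, and distal Ppp1r1b are limited by depth.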
